A study of Mus musculus with 1778 samples.

Results

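Sox10-high and Sox10-negative cells were compared among the labelled cranial cells of mouse embryos at 10 somites. Sox10 was read in each cell as CPM, its reads scaled to the reads of the cell outside the spike-ins and Rn45s, the 45S ribosomal RNA precursor, and the groups were chosen by that value. Cells of 1 plate number with at least 50000 reads outside the spike-ins and at least 1500 detected genes were called Sox10-high from 50 CPM and Sox10-negative under 10 CPM. Of the cells with this plate number 98.7% passed, of which 75.5% were Sox10-high, 88 cells (23.2%) Sox10-negative and 5 cells (1.32%) lay between. The plate number held 85.1% of the 10 somite cells and 21.597% of the 1778 cells of the series. Both groups came from Wnt1::Cre; Rosa26TdTomato embryos of strain C57BL/6 with no treatment named, separated by flow cytometry one cell to a well and profiled by Smart-Seq2, in which reads come from the whole transcript and carry no molecular identifier. In such embryos Cre is driven by Wnt1 and the label is permanent, so it marks the dorsal neural tube, where the neural crest arises, as well as the crest cells that have left it. Other labelled cells at 4, 6 and 8 somites and on other plate numbers served only to see whether the directions recurred.

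Sox10 is a transcription factor of the SoxE family with an HMG box that binds DNA. It is switched on as cranial neural crest cells leave the neural tube, is kept in glia, pigment cells and their precursors, and is lost from the crest cells that become skeleton and connective tissue, the ectomesenchyme. Labelled cells without Sox10 can be neural tube, ectomesenchyme that has lost it, or other tissue that carries the label.

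The values of Sox10 chose the cells and are given as a description. Sox10 (chr15:79154908-79165240, minus strand, mm10) was at 54.5, 364.1 and 1456 CPM in the Sox10-high cells (lowest, median and highest), and at 0 reads in 80 of the 88 Sox10-negative cells. The highest Sox10-negative cell stood at 8.79 CPM, the 5 cells between the groups at 23.2, 24.5, 29.6, 33.4 and 44.8 CPM, and the lowest Sox10-high cells at 54.5, 59.6 and 60.6 CPM. Few cells lay near either limit. No annotated gene overlapped Sox10 (GENCODE vM21), whose neighbours were Polr2f at chr15:79141009-79151774 and Gm10863 at chr15:79166041-79227524.

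**Figure D1:**
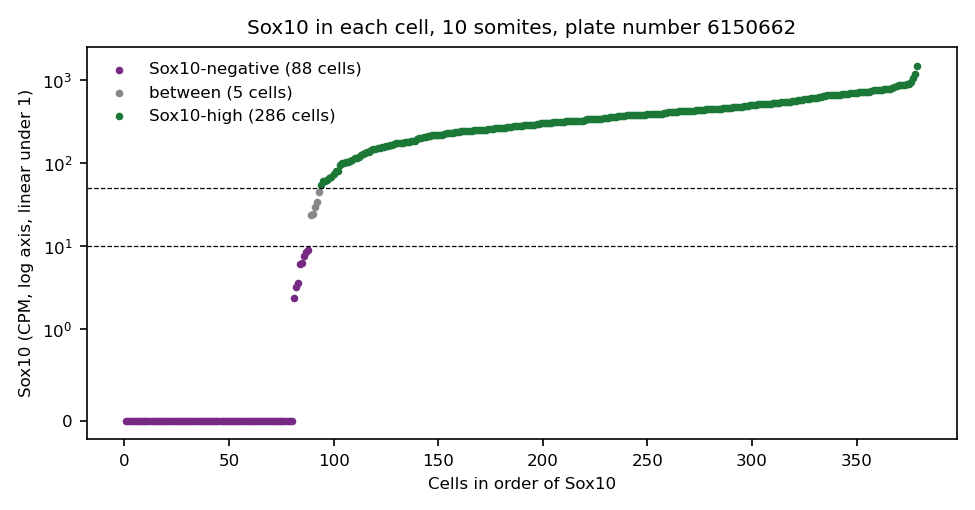
Sox10 in each cell kept, in rising order, as CPM on an axis that is logarithmic above 1 and linear below it, with dashed lines at 10 and 50 CPM. The 5 cells between 23.2 and 44.8 CPM separate 88 cells at or under 8.79 CPM from the Sox10-high cells at or over 54.5 CPM.

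Both groups shared the plate number and were sequenced to a like depth. The Sox10-high cells had a median of 327476 reads outside Rn45s and 7542 genes, the Sox10-negative cells 299300 reads and 7149 genes, with a lowest Sox10-negative cell of 10736 reads. Rn45s took a median of 53.3% of the reads on genes in the Sox10-high and 55.5% in the Sox10-negative cells. Plate columns 1 to 12 of 24 held 52.8% of the Sox10-high and 42.05% of the Sox10-negative cells. The labels name no embryo, so each group was 1 pool of cells. No test was run, and no check across replicates could be made. Groups were compared by RPM, the reads of a gene summed over the cells of a group and scaled to the summed reads outside Rn45s, with 95% intervals that cover counting error only. RPM is not scaled by transcript length and is compared between groups, not between genes.

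The defining markers separated the groups in part. With Sox10 left out, since it chose the groups, at least 3 of 7 crest markers of the Sox10 phase (Foxd3, Erbb3, Ngfr, Ets1, Tfap2a, Tfap2b and Sox9) reached 10 CPM in 99.7% of the Sox10-high and in 12.5% of the Sox10-negative cells. The sum of these 7 ranged from 143.1 to 2939 CPM with a median of 838.3 in the Sox10-high cells, and from 0 to 1502 with a median of 33.2 in the Sox10-negative cells. At least 3 of 6 ectomesenchyme markers (Twist1, Prrx1, Dlx2, Alx1 and Pdgfra among them) were found in 84.96% of the Sox10-high and 12.5% of the Sox10-negative cells, so most Sox10-high cells carried both sets. A neuroepithelium signature (3 of Sox1, Sox2, Sox3, Sox21, Hes5 and Crb2) was met by 47 Sox10-negative and 27 Sox10-high cells. Signatures of tissue outside the crest and neural tube (endothelium, surface ectoderm, head mesoderm, ventral midline and others) were met by 32 Sox10-negative cells (36.4%) and 40 Sox10-high cells (13.99%). Erythroid and cardiac signatures were met by 0 cells of either group, which allows a share of up to 1.05% of the Sox10-high and 3.41% of the Sox10-negative cells. The group without Sox10 was thus a mixture, and each value below is a mean over it unless a subgroup is named.

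Among 8427 genes with at least 10 RPM over the plate number, Sox10 left out, 2.28% were at least 2-fold higher in the Sox10-high cells and 6.11% at least 2-fold lower, together 8.39%. The median gene had a log2 ratio of −0.03, Sox10-high over Sox10-negative. At 4-fold these shares were 0.759% and 2.02%, and at 8-fold 29 genes were higher and 56 lower. Of the higher genes 57.8% were read in at least 50% of the Sox10-high cells, and of the lower genes 34.8% were read in at least 50% of the Sox10-negative cells. Scaling by TMM moved the median gene by 0.15 on the log2 scale and gave 2.93% higher and 4.94% lower genes, so that 37.3% of the called genes were higher in place of 27.2%. Without cells that carried the signature of another tissue, 4.06% of the genes were higher and 6.12% lower, and within plate columns 1 to 12 the shares were 3.77% and 7.10%.

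Transcription factors of the neural crest were among the higher genes. The list of crest specifiers had 13 measured members of 22, of which 8 were higher by 2-fold or more and 0 lower. Sox5 and Sox6 were under 10 RPM in the Sox10-negative cells, so their being higher was in part fixed by the limit for measured genes. Of all measured genes 2.28% were higher and 6.11% lower. The median log2 ratio of the list was 1.51 beside −0.03 over all measured genes. Tfap2b, an AP-2 factor that acts in crest and in surface ectoderm, was at 0, 95.1 and 417.3 CPM (lowest, median and highest Sox10-high cell) and 0, 0 and 1365 CPM in the 88 Sox10-negative cells. The Sox10-negative cells were at 0 in most cases but included the highest cell of all, and 1 cell gave 48.2% of the reads of its group. Tfap2b stood at 116.8 against 12.8 RPM, a log2 ratio of 3.18 (3.04 to 3.34), or 4.10 without that cell. Ets1, an ETS factor needed by cranial crest and by endothelium, was at 81.2, 449.7 and 1939 CPM in the Sox10-high and 0, 0 and 1084 CPM in the Sox10-negative cells. It was read in every Sox10-high cell, and its log2 ratio was 2.81 (2.75 to 2.87). Sox5, a SoxD factor that lacks a transactivation domain, was at 58.4 against 7.33 RPM (2.99), Mef2c, a MADS-box factor, at 191.3 against 27.03 RPM (2.82), and Snai1, a repressor of epithelial genes, at 112.01 against 21.5 RPM (2.38). Lmo4 and Sox6 were also at least 2-fold higher, at log2 ratios of 1.91 and 1.04.

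The other SoxE genes behaved less sharply than Sox10. Sox9, which precedes Sox10 in premigratory crest, was at 0, 43.7 and 913 CPM in the Sox10-high and 0, 6.55 and 186.3 CPM in the Sox10-negative cells. The groups overlapped over most of their range, and Sox9 stood at 62.2 against 21.9 RPM, a log2 ratio of 1.51 (1.39 to 1.63). After each cell was thinned to 50000 reads, Sox9 was read in 79.7% (74.6 to 84.2) of the Sox10-high and 41.7% (30.999 to 52.9) of the Sox10-negative cells. Sox8 was under the 10 RPM limit, at 7.93 against 1.014 RPM and a log2 ratio of 2.95, and 1 cell gave 50% of its 30 reads in the Sox10-negative cells (3.90 without it). With each cell weighted equally, the ratio of Sox8 had the opposite sign, at −0.47, so no direction is given for it.

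Receptors through which crest cells receive growth factors had the highest median among the lists with at least 3 measured members. Of 13 measured receptors and early glial genes 10 were at least 2-fold higher and 1, Kit, at least 2-fold lower (−1.83). The median was 2.79, and of all measured genes 2.28% were higher and 6.11% lower. The list held 21 genes. Ngfr, Erbb3, Ret, Gfra2, Gfra3, Itga4 and Col9a3 were under the 10 RPM limit in the Sox10-negative cells. They passed it through the other cells of the plate number, so their being higher was in part fixed by the limit. Ngfr, the low-affinity neurotrophin receptor p75 (chr11:95568818-95587735), was at 0, 118.4 and 1068 CPM in the Sox10-high and 0, 0 and 80.5 CPM in the Sox10-negative cells. Few Sox10-negative cells had any Ngfr reads, and it stood at 166.5 against 3.78 RPM, a log2 ratio of 5.45 (5.19 to 5.740). Erbb3, the receptor for neuregulin on crest and Schwann cell precursors (chr10:128567523-128589652), was at 0, 40.2 and 301.6 CPM in the Sox10-high and 0, 0 and 66.9 CPM in the Sox10-negative cells. It was read in 73.1% (67.5 to 78.1) of the Sox10-high and 8.33% (3.42 to 16.4) of the Sox10-negative cells at 50000 reads, and its log2 ratio was 3.82 (3.55 to 4.12).

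Subunits of the GDNF family receptors were restricted to fewer Sox10-high cells. Ret, the receptor tyrosine kinase, was at 0, 0 and 1891 CPM in the Sox10-high and 0, 0 and 29.9 CPM in the Sox10-negative cells. Its median was 0 in both groups, but 55 Sox10-high and 0 Sox10-negative cells reached 50 CPM, and it stood at 48.2 against 0.439 RPM (6.72, 6.003 to 7.69). Of its 13 Sox10-negative reads 61.5% came from 1 cell, without which the log2 ratio was 8.01. The co-receptor Gfra3 had 1877 reads in the Sox10-high and 1 read in the Sox10-negative cells, a log2 ratio of 8.46 with a counting interval of 6.56 to 14.34; without the cell that held that read it was set against the limit of 3 reads and was at least 7.43. Gfra2 was at 2.79, the endothelin receptor Ednrb at 1.99, and the integrin chain Itga4, which binds fibronectin, at 4.12 (4.73 without the Sox10-negative cell with most of its reads).

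**Figure D2:**
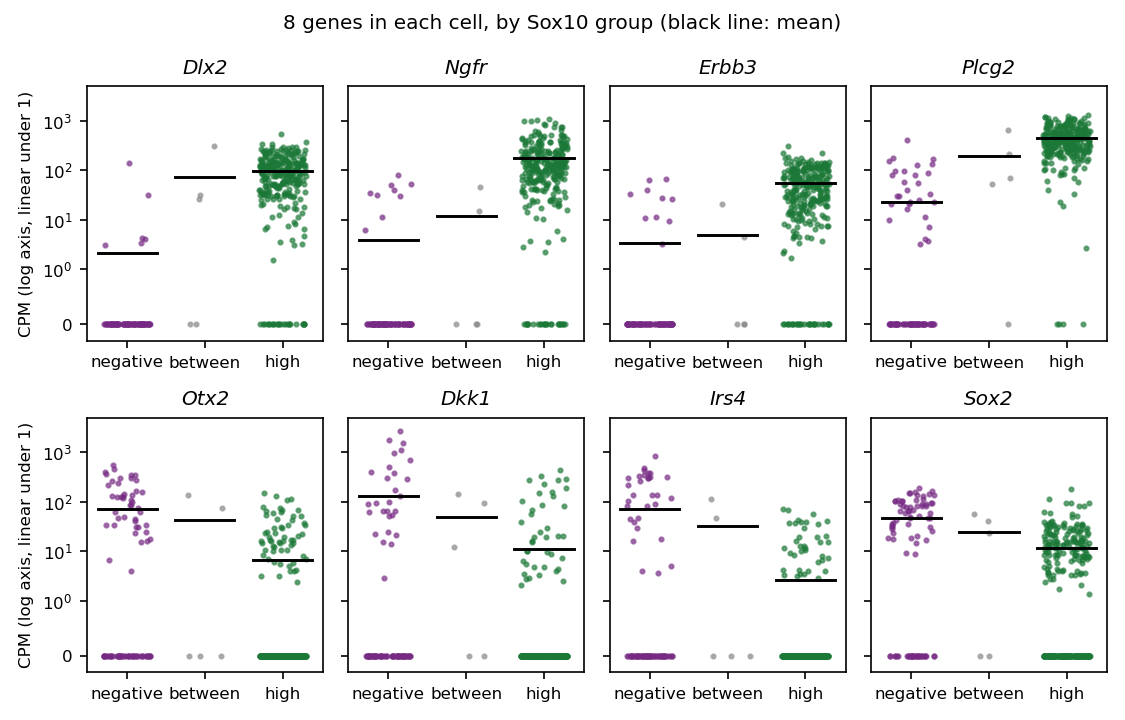
CPM of 8 genes in each cell, on an axis that is logarithmic above 1 and linear below it, for 88 Sox10-negative cells, 5 between and the Sox10-high cells, with the mean of each group as a black line. Dlx2, Ngfr, Erbb3 and Plcg2 are at 0 in most Sox10-negative cells, while Otx2, Dkk1 and Irs4 reach their highest values there. The highest Sox2 cells are alike in both groups, at 184.2 and 188.4 CPM.

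Ectomesenchyme genes were more often higher than lower with Sox10 at this stage. Of 13 measured members 7 were at least 2-fold higher and 2 at least 2-fold lower, with a median of 1.32. Of all measured genes 2.28% were higher and 6.11% lower. The list held 23 genes. Dlx2, Alx1 and Twist1 were under the 10 RPM limit in the Sox10-negative cells, and Lum and Col3a1 in the Sox10-high cells. The directions of these genes were in part fixed by the limit. Dlx2, a homeobox factor of the pharyngeal arch crest (chr2:71543408-71546754), had the largest ratio of the 15 higher genes named by rule. It was at 0, 82.6 and 526.2 CPM in the Sox10-high and 0, 0 and 140.7 CPM in the Sox10-negative cells, and 66.7% of its reads in the Sox10-negative cells came from 1 cell. Dlx2 stood at 97.01 against 1.622 RPM, a log2 ratio of 5.89 (5.49 to 6.34), or 7.43 without that cell. Alx1, a homeobox factor of the frontonasal crest, was at 0, 29.7 and 917 CPM in the Sox10-high and 0, 0 and 85.6 CPM in the Sox10-negative cells. It stood at 86.4 against 4.16 RPM (4.37). Twist1, a bHLH factor of the ectomesenchyme, had 33.4 against 8.89 RPM (1.91, 1.73 to 2.09) and reads in 72.7% (67.2 to 77.8) of the Sox10-high and 15.5% (8.51 to 25.01) of the Sox10-negative cells. Pdgfra, the receptor for PDGF-A, was at 1.82. The exceptions were matrix genes, with Lum at −3.61 and Col3a1 at −3.51, which the 11 Sox10-negative cells with the ectomesenchyme signature held at 273.8 and 683.1 RPM. Their directions did not recur in each set of other cells: Lum had the opposite sign in 3 of the 7, at up to 3.63, and Col3a1 in 2, at up to 0.49. Without the Sox10-high cell with most of its reads Col3a1 was at −4.29.

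The remaining genes of the 15 with the largest ratios are less often counted as crest genes. Plcg2, a phospholipase C that acts below immune receptors (chr8:117498291-117635142), was at 0, 393.9 and 1302 CPM in the Sox10-high and 0, 0 and 413.2 CPM in the Sox10-negative cells, a log2 ratio of 4.37 (4.26 to 4.48). It was read in 98.3% (95.97 to 99.4) of the Sox10-high and 22.619% (14.2 to 33.05) of the Sox10-negative cells. The kinase Cdk18 was at 87.9 against 5.37 RPM (4.03), the T-box repressor Tbx3 at 65.005 against 4.26 RPM (3.93), the ubiquitin ligase Trim62 at 50.2 against 6.01 RPM (3.06), Fam212a at 239.4 against 32.2 RPM (2.90) and the focal adhesion protein Tns2 at 51.1 against 7.13 RPM (2.84). Tbx3 had 50% of its Sox10-negative reads in 1 cell and a log2 ratio of 4.91 without it.

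RefSeq promoters, from 250 bases before to 50 after a start on GRCm38.p6, were read for SOX core motifs on both strands because the genes differed with Sox10. Of the 15 named higher genes 9 matched the table with 11 promoters, and 3 genes held ACAAAG or ACAATG. Those 3 are shown with the cores, on either strand, in capitals, and Mef2c with the first of its 2 windows that hold one.
Cdk18 (chr1:132139636-132139935, minus strand): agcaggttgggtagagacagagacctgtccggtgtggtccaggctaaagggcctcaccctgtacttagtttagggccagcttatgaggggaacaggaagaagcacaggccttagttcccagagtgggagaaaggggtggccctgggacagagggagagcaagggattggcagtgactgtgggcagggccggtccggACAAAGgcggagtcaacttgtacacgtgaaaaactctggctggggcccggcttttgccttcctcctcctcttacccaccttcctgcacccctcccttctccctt
Mef2c (chr13:83503784-83504083, plus strand): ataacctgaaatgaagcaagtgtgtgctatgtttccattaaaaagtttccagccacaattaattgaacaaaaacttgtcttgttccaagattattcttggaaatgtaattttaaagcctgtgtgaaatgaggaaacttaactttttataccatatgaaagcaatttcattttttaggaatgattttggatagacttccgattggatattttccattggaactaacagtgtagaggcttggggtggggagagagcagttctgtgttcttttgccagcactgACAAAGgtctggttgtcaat
Sox5 (chr6:143947057-143947356, minus strand): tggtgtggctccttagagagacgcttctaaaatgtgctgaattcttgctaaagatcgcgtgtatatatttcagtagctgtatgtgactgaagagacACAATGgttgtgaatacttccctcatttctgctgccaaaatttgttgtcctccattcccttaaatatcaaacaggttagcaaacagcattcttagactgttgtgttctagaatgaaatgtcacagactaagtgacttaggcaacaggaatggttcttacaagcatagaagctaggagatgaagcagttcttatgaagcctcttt
ACAAAG or ACAATG was found in 25.1% of the promoters of the higher genes, in 22.5% of those of the lower genes and in 19.2% of 8583 promoters of all measured genes. The E box CAGGTG was found in 17.4%, 23.71% and 15.3% of the same promoters, CATCTG in 14.4%, 12.5% and 10.2%, and the AP-2 motif GCCNNNGGC in 30.3%, 31.02% and 25.7%. Higher and lower genes thus held the SOX cores at shares of a like size, each above that of all measured genes. The promoters matched 74.5% of the higher, 76.3% of the lower and 6741 of the 8427 measured genes, and a match is a run of letters and not a shown binding site.

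Neural tube genes were among the lower genes. Among the 15 measured genes of the neuroepithelium 9 were lower by 2-fold or more and 0 higher (median −2.10). Of all measured genes 6.11% were lower and 2.28% higher. The regional neural tube list held 35 genes, of which 7 reached the 10 RPM limit, all 7 of them lower (median −3.71). Of the 7 only Irx3 and Wnt1 reached that limit in the Sox10-high cells, at 24.5 and 10.8 RPM. Among the others, Otx2, Rax and Lhx5 were at 6.11, 1.27 and 3.21 RPM. They passed it through the other cells of the plate number, so their being lower was in part fixed by the limit. The same held for Pax6, Sox21, Lhx2, Dll1 and Notch1 of the neuroepithelium list. Otx2, the homeobox gene of the forebrain and midbrain (chr14:48657677-48673819), was at 0, 0 and 149.1 CPM in the Sox10-high and 0, 2.03 and 542.2 CPM in the Sox10-negative cells. It stood at 6.11 against 80.1 RPM, a log2 ratio of −3.71 (−3.84 to −3.59), and was read in 11.5% (8.08 to 15.8) of the Sox10-high and 46.4% (35.5 to 57.6) of the Sox10-negative cells. Otx2os1, on the opposite strand, shares exon bases with it at 0.218 and 1.59 RPM, and reads of the pair cannot be told apart where the counting ignored strand. Sox2, the SoxB1 factor of neural progenitors, was at 0, 3.63 and 184.2 CPM in the Sox10-high and 0, 30.7 and 188.4 CPM in the Sox10-negative cells. The groups overlapped fully, with 34 Sox10-negative and 11 Sox10-high cells at 50 CPM or more, and a log2 ratio of −2.20 (−2.31 to −2.09). Pax6 (−4.03), Sox21 (−3.37), Lhx2 (−3.45) and Lhx5 (−4.06), all transcription factors of the early brain, and Rax (−5.22), of the eye field and hypothalamus, had medians of 0 in the Sox10-high cells. In the Sox10-negative cells the medians of Pax6, Lhx2, Lhx5 and Rax were 0 as well, and that of Sox21 was 2.92 CPM, so most cells of either group lacked reads of the 4. Rfx4, a winged helix factor of the neural tube, was at 6.85 against 68.3 RPM (−3.32).

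Irs4, an adaptor of insulin and IGF receptors on the X chromosome (chrX:141710998-141725263), had the largest ratio of the 15 lower genes named by rule. It was at 0, 0 and 72.5 CPM in the Sox10-high and 0, 0 and 824.9 CPM in the Sox10-negative cells. It was thus absent from most cells of both groups, and read in 7.69% (4.88 to 11.4) of the Sox10-high and 33.3% (23.4 to 44.5) of the Sox10-negative cells, with 2.27 against 68.99 RPM and a log2 ratio of −4.92 (−5.12 to −4.73). Dpysl5, a cytoskeletal protein of growing neurites, was more widespread, at 0, 0 and 459.2 CPM in the Sox10-high and 0, 126.6 and 880.2 CPM in the Sox10-negative cells. Its log2 ratio was −3.23, and it was read in 26.6% (21.5 to 32.1) of the Sox10-high and 71.4% (60.5 to 80.8) of the Sox10-negative cells. The kinase Nuak2 (−3.36), the tubulin Tubb4a (−3.52), the GTPase Arl4a (−3.48), Trp53i11 (−3.27) and the membrane protein Tmem132c (−3.50) were each read in over 50% of the Sox10-negative cells at 50000 reads and in under 20% of the Sox10-high cells. Igfbp2, which binds insulin-like growth factors, was read in 29.7% (24.5 to 35.4) of the Sox10-high and 83.3% (73.6 to 90.6) of the Sox10-negative cells and had a log2 ratio of −3.26.

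Wnt, Notch and guidance genes were more often lower than higher with Sox10, while the FGF and the BMP and TGFb lists held few genes at 2-fold either way. The counts below stand beside 2.28% of all measured genes higher and 6.11% lower. Of the genes counted, Sp5, Dkk1, Wnt5b, Wnt6, Notch1, Dll1, Hey1, Epha4, Ephb1, Efnb3, Sema6a, Plxnd1, Tgfb2 and Stra6 were under the 10 RPM limit in the Sox10-high cells. Nkd2, Plxna4, Spry4, Rara and Rarg were under it in the Sox10-negative cells. Each passed through the other cells of the plate number, so its direction was in part fixed by the limit. Of 16 Wnt pathway genes 2 were at least 2-fold higher (Nkd2 and Fzd7, 2.1796 and 1.20) and 11 lower, with a median of −1.31. Dkk1, a secreted Wnt antagonist (chr19:30545863-30549665), was at 0, 0 and 441.3 CPM in the Sox10-high and 0, 0 and 2693 CPM in the Sox10-negative cells. Its median was 0 in both groups, 1 cell gave 33.7% of its Sox10-negative reads, and its log2 ratio was −4.17 (−4.27 to −4.07). The ligands Wnt1 and Wnt5b were at −2.55 and −2.59, although Wnt1 was higher with Sox10 in the cells of 4, 6 and 8 somites. Of 8 Notch genes 4 were lower and 0 higher, with the ligand Dll1 at −3.59 and Notch1 at −2.10. Of 22 guidance genes 12 were lower and 1 higher: the semaphorin receptor subunit Plxna4 was at 3.11, or 4.18 without the cell that gave 53.6% of its Sox10-negative reads, while the Eph receptor Epha7 was at −3.04. In the FGF list 1 of 10 genes was higher, the feedback inhibitor Spry4 (2.49), and 2 were lower, the receptor Fgfr2 (−2.08) and the ligand Fgf15 (−2.61). In the BMP and TGFb list 1 of 10 was higher, the BMP target Id1 (1.52), and 2 were lower. Among 9 retinoic acid genes 3 were higher, with the binding protein Crabp1 at 631.2 against 130.005 RPM (2.28), and 2 lower, with the degrading enzyme Cyp26c1 at −2.48.

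Adhesion and matrix genes held members in both directions, beside 2.28% of all measured genes higher and 6.11% lower. Of 26 epithelial junction and polarity genes 13 were measured, of which 9 were lower by 2-fold or more and 0 higher (median −2.13). Cdh1, Cldn6, Epcam, Pard6b, Cgn, Pkp2 and Lrp2 were under the 10 RPM limit in the Sox10-high cells. They passed it through the other cells of the plate number, so their being lower was in part fixed by the limit. The count differed with the Sox10-negative cells it was set against. Of the 11 that were no marker of a subgroup described below, 2 were higher and 5 lower against the neuroepithelium cells (median −0.36), and 4 were higher and 1 lower against the ectomesenchyme cells (median 0.17). In the 10 somite cells of the second plate number 3 of the 13 were higher and 5 lower (median −0.15). Surface ectoderm markers were alike in median but reached higher among the Sox10-negative cells: the sum of 9 was at 0, 17.5 and 11836 CPM in the Sox10-negative and 0, 21.1 and 1163 CPM in the Sox10-high cells, and at least 3 were found in 11.4% and 11.5% of the cells. Of the 9 only Trp63 had no reads in the Sox10-high cells. Their part in the result was not tested. Cdh1, E-cadherin, was at 2.99 against 59.5 RPM (−4.32), and 1 cell gave 41.2% of its Sox10-negative reads (−3.58 without it). Of 22 EMT and migration genes 5 were higher, among them the metalloprotease Adam12 (3.07) and the Cdc42 effector Cdc42ep1 (2.15), and 4 lower, among them N-cadherin, Cdh2 (−1.55), and the matrix protein Sparc (−2.27). Of 28 matrix and integrin genes 5 were higher and 8 lower, with the basement membrane collagen Col18a1 at 42.1 against 279.4 RPM (−2.73). Of 18 actin and contractile genes 0 were higher and 3 lower. Among the called EMT and matrix genes, Itga4, Adam12, Twist1 and Col9a3 were under the 10 RPM limit in the Sox10-negative cells. Lama5 and Ddr1 were under it in the Sox10-high cells. The directions of these genes were in part fixed by the limit.

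Cell cycle genes differed little between the groups. No gene of the 30 S phase and 33 G2M phase genes reached 2-fold either way, with medians of −0.05 and −0.15, beside 8.39% of all measured genes. Mki67, a marker of cycling cells, was at 223.5 against 331.7 RPM (−0.57). Of 9 p53 and apoptosis genes 0 reached 2-fold. Of 18 glycolysis and hypoxia genes 2 were higher and 2 lower, the lower ones being the glucose transporters Slc2a1 and Slc2a3. Slc2a1 was at 0, 356.1 and 1878 CPM in the Sox10-high and 0, 851.2 and 8427 CPM in the Sox10-negative cells (−1.77), and Slc2a3 at 0, 34.8 and 3635 CPM in the Sox10-high and 0, 390.6 and 23526 CPM in the Sox10-negative cells (−3.58). Of 10 genes of the response to dissociation 2 were higher and 5 lower. Fos was at 23.68 against 96.3 RPM, with 1 cell giving 31.8% of its Sox10-negative reads. The sign of Fos was opposite in 3 of the 7 other sets of cells. Atf3 and Btg2 were under the 10 RPM limit in the Sox10-high cells and Nr4a1 in the Sox10-negative cells.

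The lower genes were not all highest in the same kind of Sox10-negative cells. By signature 39 cells carried neuroepithelium and no other tissue (3 of them with a neuron signature too), 11 ectomesenchyme (4 of these with head mesoderm), 9 endothelium alone, 6 surface ectoderm alone, 5 head mesoderm alone and 9 none. These are ranges of marker values and not types, and the markers that chose a subgroup are no finding in it. Over the first 5 subgroups, 32.6% of the lower genes were highest in the 6 surface ectoderm cells, 27.4% in the 39 neuroepithelium cells and 20.58% in the 9 endothelium cells, beside 22.71%, 18.4% and 21.4% of all measured genes. Krt8 and Krt18, the keratin pair of simple epithelia, were markers of the surface ectoderm signature, and without cells of other tissue signatures the log2 ratio of Krt8 had the opposite sign, 0.38. It was −3.09 over all cells and −2.46 without the Sox10-negative cell with most of its reads, and Krt18 was at −3.58 and −2.92. Slc2a3, no marker, had 62.7% of its reads in the surface ectoderm cells, at 14990 RPM, but neuroepithelium cells, at 648.7 RPM, also stood above the 143.6 RPM of the Sox10-high cells. The endothelial genes Emcn and Cldn5, at log2 ratios of −4.22 and −4.69, were markers of the endothelium signature, and their levels in its cells are not given. The neuroepithelium cells were 39 of the 88 Sox10-negative cells. Otx2, Irs4 and Rax had 75.1%, 74.1% and 84.6% of their Sox10-negative reads in those 39 cells. Fst, which binds activin, had 54.5% in the 11 ectomesenchyme cells.

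Set against the 39 neuroepithelium cells alone, 6.34% of the genes were at least 2-fold higher in the Sox10-high cells and 5.38% lower, and 94.8% of the higher genes were again at least 2-fold higher. Of the lower genes 63.9% were again at least 2-fold lower and 86 genes, or 16.70%, had the opposite sign. These cells were chosen to lack the ectomesenchyme signature, so low levels of ectomesenchyme genes in them follow in part from that choice. The 7 measured ectomesenchyme genes that were no marker were then at least 2-fold higher, with a median of at least 3.96. That median is the ratio of Lum, at 3.44 RPM in the Sox10-high cells. Lum and Foxc1 had 0 reads in the neuroepithelium cells, set at 3 reads, so their ratios are bounds. Ets1 was at 0.810 RPM and Snai1 at 1.18 RPM, with log2 ratios of 9.27 and 6.53. Sox9 and Crabp1 were nearer, with log2 ratios of 1.98 and 1.90.

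Set against the 11 ectomesenchyme cells, 8.39% of the genes were at least 2-fold higher and 5.08% lower, and 65.1% of the higher genes were again higher. Crest receptors again stood higher in 9 of 13 cases, with a median of 3.01, while of the 7 ectomesenchyme genes that were no marker 1 was higher and 3 lower. Ngfr was at 10.2 RPM and Erbb3 at 1.05 RPM in these cells. Snai1 at 109.6 RPM and Sox9 at 56.2 RPM were close to the Sox10-high cells, with log2 ratios of 0.03 and 0.14. Against both subgroups, 2.23% of the genes were at least 2-fold higher in the Sox10-high cells and 1.36% at least 2-fold lower. Of these 62.2% and 93.9% were among the higher and lower genes of the whole comparison, and they made up 60.9% of its higher and 20.97% of its lower genes.

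Pooled, the 5 cells between the groups were also between them in most of the named genes. Of the 15 named higher genes 14 lay between the groups in RPM, and 8 of the 15 were nearer to the Sox10-negative cells. Of the 15 named lower genes 13 lay between, and 9 of the 15 were nearer to the Sox10-negative cells. Erbb3 stood at 4.04 RPM and Tfap2b at 6.35 RPM in the pool, Dlx2 at 56.001 RPM and Ets1 at 110.3 RPM, and Igfbp2 at 163.96 RPM. The single cells differed widely, so the pooled values do not show that each cell was intermediate. Plcg2 was at 0, 53.46, 70.98, 207.9 and 652.6 CPM in the 5 cells, beside a Sox10-high median of 393.9 CPM. For Dlx2 a single cell stood above the Sox10-high median of 82.6 CPM, with the others at 0, 26.62 or 30.99 CPM.

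Within the Sox10-high cells, the level of Sox10 itself went with other genes. The cells were divided into 4 bins by Sox10, at 54.5 to 242.6, 244.2 to 362.9, 365.4 to 515.4 and 516.2 to 1456 CPM (72, 71, 71 and 72 cells). This division and its genes were chosen after their values were seen. From the lowest to the highest bin Ret was at 16.5, 17.04, 49.05 and 117.98 RPM, Ednrb at 13.4, 20.97, 55.5 and 83.9 RPM, Foxd3, a crest repressor, at 1.82, 4.87, 8.25 and 14.2 RPM, and Ngfr at 100.4, 129.5, 174.4 and 273.9 RPM. Tubb3, a neuronal tubulin, was at 26.4, 45.7, 52.7 and 108.5 RPM. Ectomesenchyme genes did not share 1 direction. Prrx1 ran the other way, at 33.8, 26.2, 14.5 and 5.64 RPM, and Twist1 fell less, at 37.8, 36.4, 33.9 and 24.4 RPM. Dlx2 was at 75.98, 116.4, 105.2 and 90.03 RPM, and Pdgfra rose slightly, at 46.5, 48.6, 48.7 and 54.1 RPM. Tbx3, which is not in the ectomesenchyme list, was at 63.3, 64.4, 61.3 and 71.5 RPM. Plcg2, at 407.97, 440.5, 446.7 and 461.4 RPM, varied least of these.

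Signatures of other tissues also went with low Sox10 among the Sox10-high cells. They were met by 23 cells of the lowest bin, 14 of the second, 3 of the third and 0 of the highest, and the neuroepithelium signature by 15, 7, 4 and 1 cells. Epcam, an epithelial adhesion protein, was at 23.9, 4.796, 2.99 and 0.122 RPM and Tek, an endothelial receptor, at 16.738, 2.43, 0 and 0.0406 RPM over the bins. The median number of reads outside Rn45s was 360385, 370954, 300972 and 308502, the median number of genes 7809, 7734, 7430 and 7274, and the median share of Rn45s 46.01%, 49.2%, 56.2% and 57.8%. The part of other cells or of depth in the differences between bins was not tested. Between the highest and the lowest bin 96 genes (1.14%) were at least 2-fold higher and 2.42% lower, of which 75% were also at least 2-fold lower in the Sox10-high than in the Sox10-negative cells. Without cells that carried another tissue's signature, which left 49 cells in the lowest bin and 72 in the highest, 2.77% of the genes were higher and 1.5% lower, and the log2 ratio of the highest over the lowest bin was 2.63 for Ret, 3.33 for Foxd3, 1.21 for Ngfr and −2.80 for Prrx1.

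**Figure D3:**
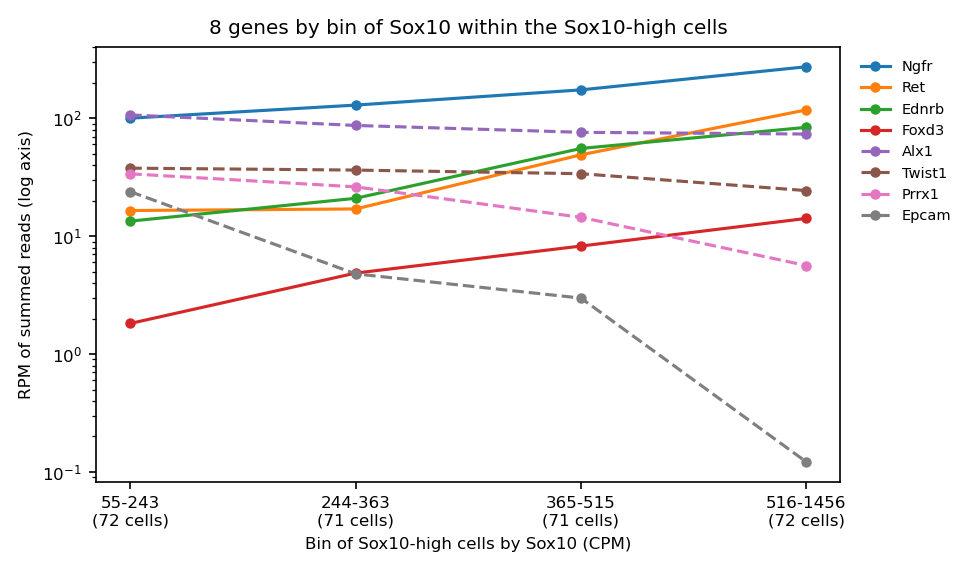
RPM of 8 genes on a log axis in the 4 bins of the Sox10-high cells by Sox10, with the CPM range and number of cells of each bin. Ret runs from 16.5 to 117.98 RPM and Prrx1 from 33.8 to 5.64 RPM, while Epcam drops to 0.122 RPM.

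Several genes picked out different Sox10-high cells. At 50 CPM or more, Crabp1 was found in 95.1%, Ngfr in 75.5% and Dlx2 in 66.8% of the Sox10-high cells, whereas Alx1 was found in 41.6%, Ret in 55 cells (19.2%), Gfra3 in 42, Hoxb1 in 16 and Hoxa2 in 13. The hindbrain genes Hoxb1 and Hoxa2 lay almost entirely within the Ret cells: 14 of the 16 Hoxb1 cells and 12 of the 13 Hoxa2 cells were among the 55. Meis1, a cofactor of Hox proteins, was at that level in 17 cells, 12 of them with Ret. Alx1 was found in 40% of the 55 cells with Ret and in 41.99% of those without it. Gfra3, although a co-receptor gene of the same family, coincided with Ret in 4 cells, and Twist1 in 3 of its 57 cells. Tbx3 was at that level in 60.5% of the Alx1 cells and in 32.9% of the others. These pairs were chosen after their values were seen and carry no test.

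The directions were then read in cells that the split had not used, in 7 sets of cells by stage and plate number. A second plate number held 10 somite cells (46 Sox10-high, 7 Sox10-negative). They gave the same sign for 89.1% of the higher and 74.4% of the lower genes, beside 53.6% and 46.4% of all genes. At 2-fold or more they gave 72.4% and 54.8%, beside 17.3% and 11.1% of all genes. The 8 somite cells of that plate number (61 Sox10-negative) gave the same sign for 97.9% and 97.1%, beside 45.6% and 54.4% of all genes. At 2-fold or more these cells gave 70.8% and 66.4%, beside 2.58% and 5.55% of all genes. The 6 somite cells of the second plate number (45 Sox10-high, 24 Sox10-negative) gave at least 2-fold for 60.9% and 34.2%, beside 4.83% and 3.89%. The 6 somite cells of 3 further plate numbers gave 50.5% and 49.9% (92 Sox10-high cells, beside 2.21% and 4.73%), 53.1% and 50.7% (66 cells, beside 2.36% and 5.16%) and 38.9% and 47.96% (12 cells, beside 4.84% and 12.8%). At 4 somites (14 Sox10-high, 74 Sox10-negative cells) the shares were 42.5% and 48.3%, beside 4.46% and 11%. Of the 15 named higher genes 11 had the same sign in each of the 7 sets, and for the other 4 the sign differed in 1 or 2 sets. Of the 15 named lower genes 9 had the same sign in each of the 7 sets, and Krt8, Krt18, Fst, Rfx4, Tmem132c and Slc2a3 differed in 1 set each. Ngfr ranged from 4.08 to 8.47, Dlx2 from 3.17 to 6.42 and Erbb3 from 2.89 to 5.30 over the 7 sets. Sox9 ranged from 2.56 to 5.47, each above its value of 1.51 here. Alx1 was not steady and ranged from −1.59 to 6.77. The median of the ectomesenchyme list was 1.32 here, 3.23 and 0.74 in the 10 and 8 somite cells of the second plate number, −0.41 to 0.96 over the 4 sets of 6 somites and −0.69 at 4 somites. Crest receptors had medians of 1.51 to 3.77 and neuroepithelium genes of −1.38 to −0.43 over the 7 sets. Among the lower genes Otx2 (−5.598 to −2.03), Dkk1 (−6.605 to −2.32) and Irs4 (−4.66 to −1.90) were lower in all 7 sets.

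**Figure D4:**
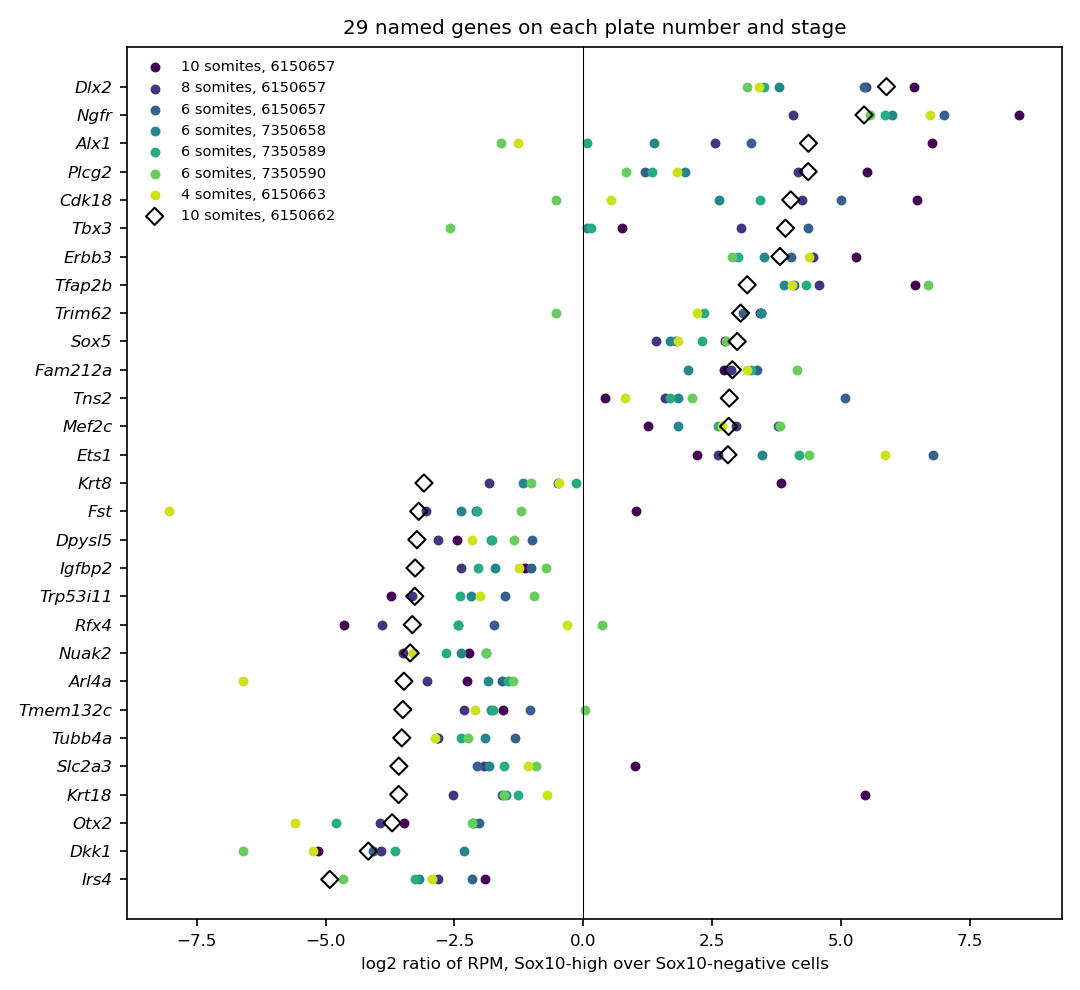
Log2 ratio of RPM, Sox10-high over Sox10-negative cells, for 29 of the 30 genes with the largest ratios (rows) in 7 other sets of cells (filled points, by stage and plate number) and in the 10 somite cells described here (open diamonds). Krt18 and Krt8 stand at 5.47 and 3.83 in the 10 somite cells of the second plate number and below 0 elsewhere, and Alx1 and Tbx3 lie on both sides of 0.

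Embryos could be told apart only by sex-linked reads. No cell of this plate number had an Xist read. Genes of the Y chromosome reached 50 CPM in 82.5% of the Sox10-high and 78.4% of the Sox10-negative cells, were under 10 CPM in 10 and 8, and lay between in 40 and 11. Among the cells at 50 CPM or more, 30 of the 30 named genes kept their direction at 2-fold or more. These cells made up most of both groups, and the genes were named from the same cells. That outcome was thus close to fixed in advance and is no separate support. The number of embryos is not known.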

How the data were processed

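Single cells were sequenced with Smart-Seq2 and Nextera XT, which does not mark strand. The deposited table holds counts of reads per gene and cell for 24920 genes and the spike-ins. Per the submitters' processing notes reads were handled with bcl2fastq 2.18 and STAR 2.6 on mm10. The counter and annotation release of this table: not given in the sources used here. Each title holds a number; it was taken as the plate number, which the labels do not explain. Plate number 6150662 held 384 of the 451 cells at 10 somites, of which 379 passed, 286 Sox10-high, 88 Sox10-negative and 5 between. The second plate number with 10 somite cells was 6150657. Of 8427 measured genes 192 were higher and 515 lower.

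Cells were filtered and grouped as described above. No doublet caller was run, since cells were sorted singly. Counts were summed per group, and log2 ratios were taken after adding 0.5 reads; no ratio was given where both sums were at 3 reads or fewer, and a sum of 0 was set to 3 reads. Exact binomial intervals at 95% cover counting error only, because reads lack molecular identifiers and are not independent. Each cell was thinned to 50000 reads for shares of cells with a read, which carry Clopper-Pearson intervals. A gene was called from 2-fold.

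Genes named were the 15 largest ratios each way among those with at least 50 RPM in the higher group, reads in at least 30% of its thinned cells and a 2-fold ratio of mean CPM of the same sign, leaving out unnamed, pseudogene, ribosomal, mitochondrial, histone and sex-linked genes. Up to 4 members of each of 29 gene lists, Sox10, Sox8, Sox9, Sox2 and Twist1 were added; results for 2 of these genes were left out. Further members of lists, the genes of the Sox10 bins and those of the cell pairs were chosen after their values were seen. The groups, members and lists were chosen with earlier results of these data known. The ratios and intervals were tested on simulated data. Alternatives covered scaling (edgeR 4.0.16 TMM and DESeq2 1.42.0 size factors, scaling only), filters, thresholds, plate columns, signatures and other plate numbers. Python 3.11.15, numpy 2.4.6, pandas 2.3.3, scipy 1.17.1, matplotlib 3.10.9 and R 4.3.3 were used.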

Additional observations from a re-analysis of the deposited data

Results flagged for a closer look

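Wnt1, which encodes a ligand of the dorsal neural tube, had opposite directions at different stages. Its log2 ratio, Sox10-high over Sox10-negative cells, was -2.55 in the 10 somite cells described above, with 10.8 RPM in the Sox10-high and 63.4 RPM in the Sox10-negative cells. In the 10 somite cells of the second plate number it was -1.66. In the 4 sets of 6 somite cells it lay between 0.86 and 1.36, in the 8 somite cells it was 0.61 and at 4 somites 0.48. Among the Sox10-negative cells at 10 somites, those with the neuroepithelium signature alone held 81.9 RPM and the 9 without any signature 246.6 RPM. The difference between stages was not tested, since each set of cells gives 1 ratio.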

How the results depend on the processing

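The shares of 2.28% higher and 6.11% lower genes corresponded to counts that stayed within 1.5 times under thinning (2.24% and 5.87%), other scalings, 5 added reads, other filters on cells, other Sox10 thresholds, cells with Y-linked reads (2.25% and 5.91%) and without the lowest Sox10 bin, which was chosen after seeing the data (2.37% and 6.76%). They moved with no minimum RPM (6.73% and 23.3%) and with a minimum of 50 RPM (1.503% and 1.45%), where more or fewer genes enter. The higher share alone moved without cells of other tissue signatures (4.06%), with Sox10-negative cells that had Sox2 alone (6.30%), within plate columns 1 to 12 (3.77%) and against the subgroups chosen after seeing the data, neuroepithelium (6.34%) and ectomesenchyme (8.39%). In other cells the shares were 4.83% and 3.89% (6 somites, second plate number), 17.3% and 11.1% (10 somites, second plate number), 4.46% and 11.02% (4 somites) and 4.84% and 12.8% (6 somites, 12 Sox10-high cells). The cause was not tested.

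Log2 ratios with the opposite sign, among 80 genes and the medians of the lists, were as follows. In the 10 somite cells of the second plate number, with 7 Sox10-negative cells, they were Krt18 (5.47), Cdh1 (3.94), Krt8 (3.83), Lhx2 (3.76), Cyp26c1 (1.79), Fst (1.03), Lum (2.69, a bound), Slc2a3 (0.9995), Pax6 (0.68) and Col3a1 (0.49), and the medians of surface ectoderm (3.43) and Wnt genes (0.53). In the 6 somite set with 12 Sox10-high cells they were Fzd7 (-2.69), Tbx3 (-2.59), Sox6 (-2.27), Alx1 (-1.59), Ret (-1.17), Lmo4 (-0.65), Cdk18 (-0.53), Trim62 (-0.52), Wnt1 (0.93), Rfx4 (0.37), Tmem132c (0.036) and the ectomesenchyme median (-0.34). At 4 somites they were Alx1 (-1.26), Fzd7 (-0.75), Pdgfra (-0.69), Crabp1 (-0.67), Itga4 (-0.47), Fos (2.04), Lum (1.08), Wnt1 (0.48) and the ectomesenchyme median (-0.69). In the 6 somite set with 92 Sox10-high cells they were Wnt1 (0.86), Fos (0.0043) and the ectomesenchyme median (-0.41), in the set with 66 Wnt1 (1.20) and the Wnt median (0.21), and in the set with 45 Lum (3.63), Wnt1 (1.36), Fos (0.71), Col3a1 (0.27), Nkd2 (-0.30) and the endothelium median (0.86). At 8 somites Wnt1 was at 0.61. With Sox10-negative cells that had Sox2 alone they were Col3a1 (5.08), Cyp26c1 (4.13), Emcn (3.52), Lum (2.603), Cldn5 (2.33), Fos (2.14) and the medians of endothelium (4.26), head mesoderm (2.02), dissociation stress (1.17) and endoderm (0.48). Krt8 was at 0.38 without other tissue signatures, Sox8 at -0.47 by mean CPM, the stress median at 0.44 from 50 RPM and the cardiac median at -2.66 with no minimum RPM. Leaving out the cell with most reads of a gene in either group, chosen after seeing the data, reversed 0 of the 80 and moved 12 by over 1.5 times, each given above.

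No paired analysis was possible because the labels carry no replicate numbers and each group is 1 pool of cells with no test. Cells with Twist1 alone were not run, since 4 Sox10-negative cells met that rule, nor were cells with Xist reads, since 0 cells had one.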
